A study of Mus musculus with 12 samples.

Results

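The genes of the mouse major histocompatibility complex (MHC), named H2 in the mouse, were examined in liver with the genes that serve them. Every gene whose name begins with H2- was taken, with the invariant chain Cd74, the light chain B2m, the transactivator Ciita, the transporter subunits Tap1 and Tap2 and the loading factor Tapbp. The rule found 43 genes. Of these, 41 were among the 22564 genes of the expression table and 2, H2-Q8 and H2-T10, were found in the peak lists alone. In the table, 28 belong to the class I group, 11 to the class II group, and 2 carry an H2 name for their position on the chromosome alone.

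The study compared the liver transcriptome and its N6-methyladenosine (m6A) marks between liver-specific Mettl3 conditional knockout (cKO) mice and wild-type mice, all male, C57BL/6 and 8 weeks old. Mettl3 is the methyltransferase that places m6A on mRNA. The Cre driver or promoter behind the knockout is not given in the sources used here. The labels give 12 samples in 4 groups of 3, which are cKO IP, cKO input, wild-type IP and wild-type input. IP stands for RNA fragments pulled down with an antibody against m6A, and input for the RNA before that step.

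Class I molecules display peptides made inside the cell to CD8 T cells and are carried by nearly all nucleated cells, hepatocytes included. Their heavy chain pairs with B2m, and peptides reach it through the Tap transporter and tapasin. Class II molecules display peptides from outside to CD4 T cells and belong mainly to dendritic cells, B cells and macrophages. In liver, Kupffer cells and sinusoidal endothelial cells carry them too. The invariant chain guards the class II groove, H2-DM exchanges its last fragment for a peptide, and Ciita switches the class II genes on.

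One input library and one peak list could be tied to each genotype. They are called here the case library, since its label reads case and the series has these genotypes alone, and the control library, read as wild type. The labels do not state that reading. Mettl3 itself was at 2.91 FPKM (17 fragments) in the case input and 3.44 FPKM (12 fragments) in the control input, and so did not set the case library apart. The case input held 3564792 fragments and the control input 1737350. With 1 library per genotype no test could be run, and every difference below is between these libraries, not between genotypes. Intervals are 95% intervals and cover counting error only. Ratios of fragments are of scaled fragments, that is, fragments multiplied by the authors' own library factor. That factor does not make the non-mitochondrial totals of the libraries equal, so a ratio of 1 need not stand for an equal level. The class I group had a ratio of scaled fragments of 1.66, case over control. The scaled count signal named below is the authors' count signal with those totals made equal, and there the class I sums had a ratio of 0.998. FPKM is fragments per unit of transcript length and library size, so that it can be compared between genes. Over the 9584 genes with a mean of at least 1 FPKM, the difference in log2(FPKM + 1), case minus control, had a median of 0.41. A gene was called higher or lower at a difference of 1, which is 2-fold on that scale and understates the change of low genes. By this rule 2260 genes (23.6%) were higher and 1264 (13.2%) lower in the case input. That split turned with the scaling, at 757 higher and 2168 lower with equal non-mitochondrial totals, 1108 and 1763 after median centring, 1351 and 1533 after quantile normalization, and 1034 and 2381 on the scaled count signal.

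Class II genes were lower in the case input, in each of the 9 members that could be tested. Their FPKM summed to 26.4 in the case input and 449 in the control input over all 11 members, a 17.0-fold lower sum in the case input. The fragments behind these sums numbered 174 in the case input, the deeper of the libraries, and 2693 in the control input, a ratio of scaled fragments of 0.0552 with an interval of 0.0471 to 0.0644. Over those 9 members the median log2 difference was -2.39, or -2.80 relative to all genes tested, where 13.2% of genes were lower by this rule. Of the 9, 4 (Cd74, H2-Aa, H2-Ab1 and H2-Eb1) were above 1 FPKM in both libraries; the other 5 passed the filter through the control library alone and so had to differ, and the count and median describe these members without supporting a difference. The sum was 28.4-fold lower in the case input with equal non-mitochondrial totals, 30.5-fold after quantile normalization and 30.2-fold on the scaled count signal, so no scaling tried brought the sums closer.

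**Figure D1:**
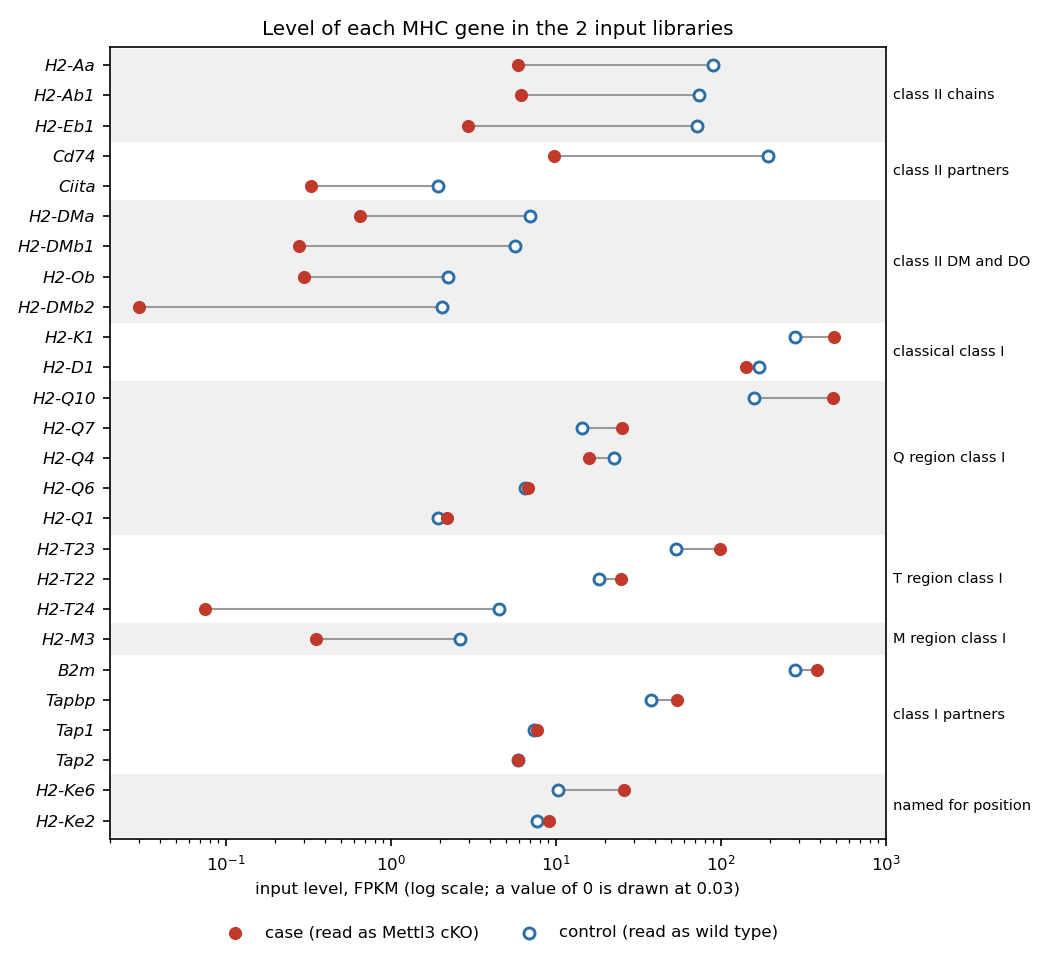
Input level in FPKM (log axis) of each MHC gene with a mean of at least 1 FPKM, grouped by role. Filled points are the case library and open points the control library, 1 library each; the class II points of the case library lie left of those of the control library in every line, from H2-Eb1 at 2.95 against 72.0 FPKM to Ciita at 0.329 against 1.93 FPKM.

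The invariant chain Cd74 was the most abundant class II message of both libraries. It stood at 9.79 FPKM (75 fragments) in the case input and at 194 FPKM (1216 fragments) in the control input. Case over control, its scaled fragments came to a ratio of 0.0527 (interval 0.0412 to 0.0665). Ranked among the 9584 genes tested, Cd74 was number 2529 in the case input and number 58 in the control input, next to the class I chains. Its gene lies outside the complex, at chr18:60803848-60812646 on the plus strand (mm10).

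The chains of the class II heterodimer were lower by 12.1-fold to 24.4-fold in FPKM in the case input. H2-Aa, the alpha chain of I-A, had 5.93 FPKM (36 fragments) in the case input and 89.5 FPKM (485 fragments) in the control input. H2-Ab1, the beta chain of I-A, had 6.16 FPKM (24 fragments) in the case input and 74.4 FPKM (402 fragments) in the control input. H2-Eb1, the beta chain of I-E, had 2.95 FPKM (20 fragments) in the case input and 72.0 FPKM (416 fragments) in the control input. C57BL/6 mice carry a defective I-E alpha gene and show no I-E on their cells. The log2 differences were -3.71 for H2-Aa, -3.40 for H2-Ab1 and -4.21 for H2-Eb1. In proportion to H2-Ab1, H2-Aa stood at 0.963 in the case library and 1.20 in the control library, while H2-Eb1 stood at 0.479 in the case library and 0.967 in the control library. The authors assigned these 3 genes 1 shared locus, chr17:34263209-34316674. The fragments of H2-Aa and H2-Eb1 did not come out whole, and those of H2-Ab1 gave a 19.6-fold lower level in the case input where FPKM gave 12.1-fold.

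The promoters of the class II genes share a short motif, shown here because these genes were lower together. The sequences are those of RefSeq (GRCm38.p6, the coordinates of mm10), which held a promoter for 8 of the 11 class II members. Each run is 180 bases, 5′ to 3′ on the strand of the gene. Capitals mark CCAAT, or ATTGG where it lies on the other strand, the letters bound by the factor NF-Y and called the Y box in class II promoters. H2-Aa is taken from chr17:34287824-34288003 (minus strand), H2-Eb1 from chr17:34305687-34305866 (plus) and H2-DMb1 from chr17:34153011-34153190 (plus).
H2-Aa: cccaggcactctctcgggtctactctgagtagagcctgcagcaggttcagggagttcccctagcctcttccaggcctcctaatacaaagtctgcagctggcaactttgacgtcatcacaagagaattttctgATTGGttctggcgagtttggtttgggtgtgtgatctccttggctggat
H2-Eb1: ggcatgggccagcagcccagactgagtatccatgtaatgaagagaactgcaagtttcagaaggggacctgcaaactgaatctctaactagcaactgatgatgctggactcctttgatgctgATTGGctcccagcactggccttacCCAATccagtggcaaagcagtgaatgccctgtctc
H2-DMb1: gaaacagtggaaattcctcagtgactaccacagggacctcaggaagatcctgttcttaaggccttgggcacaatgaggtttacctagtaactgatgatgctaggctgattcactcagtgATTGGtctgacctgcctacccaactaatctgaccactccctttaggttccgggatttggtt

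Within 250 bases before the start, CCAAT was found on either strand in 8 of 8 class II members with a promoter, in 22 of 25 class I members, and in 33.8% of all 32851 promoters of the same length. In the reverse form ATTGG it began 48 bases before the start of H2-Aa, 59 before that of H2-Eb1, 61 before that of H2-DMb1, 57 before that of H2-Ob and 43 before that of H2-Oa. It lay farther out in H2-DMb2, at 90 bases, in H2-Eb2, at 100 bases, and in H2-DMa, at 198 bases. The match is a description of these letters and no evidence of a bound factor.

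The genes that edit the class II peptide were below H2-Aa, H2-Ab1 and H2-Eb1 in both libraries and lower in the case input than in the control input. In the control input H2-DMa stood above 73.6% of the genes tested and H2-DMb1 above 67.3%, with H2-Ob above 30.3% and H2-DMb2 above 26.7%. H2-DMa and H2-DMb1 encode the chains of H2-DM, which removes the last piece of the invariant chain from the groove. H2-DMa had 0.649 FPKM (6 fragments) in the case input and 6.97 FPKM (47 fragments) in the control input, a fragment ratio of 0.109 with an interval of 0.0381 to 0.256. H2-DMb1 had 0.277 FPKM (1 fragment) in the case input and 5.71 FPKM (40 fragments) in the control input, a ratio of 0.0214 with an interval of 0.000528 to 0.126. Its neighbour H2-DMb2 had no fragment in the case input and 13 (2.04 FPKM) in the control input, and was at least 5.07-fold lower in the case input when its 0 is set to a floor of 3 fragments; the upper limit of its fragment ratio, which also holds the counting error of the control value, was 0.280. H2-Ob, the beta chain of H2-DO, which restrains H2-DM, had 0.297 FPKM (1 fragment) in the case input and 2.22 FPKM (14 fragments) in the control input. A ratio on so few fragments is wide, 0.00144 to 0.401 for H2-Ob. These 4 genes are among those that passed the filter through the control library alone, so their ratios are given as a description. The remaining pair was too low to test: H2-Oa, the alpha chain of H2-DO, and the E beta chain gene H2-Eb2 had no fragment in the case input, against 3 for H2-Oa and 2 for H2-Eb2 in the control input.

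Ciita, the transactivator of the class II genes, was lower in the case input. It passed the filter through the control library alone and so had to differ, and its values are given as a description. It had 0.329 FPKM (11 fragments) in the case input and 1.93 FPKM (55 fragments) in the control input, with a fragment ratio of 0.171 and an interval of 0.0806 to 0.330. Its log2 difference of -1.14 was just short of 2-fold, at -0.996, after quantile normalization. At chr16:10485541-10779516 its deposited locus takes in neighbouring genes.

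**Figure D2:**
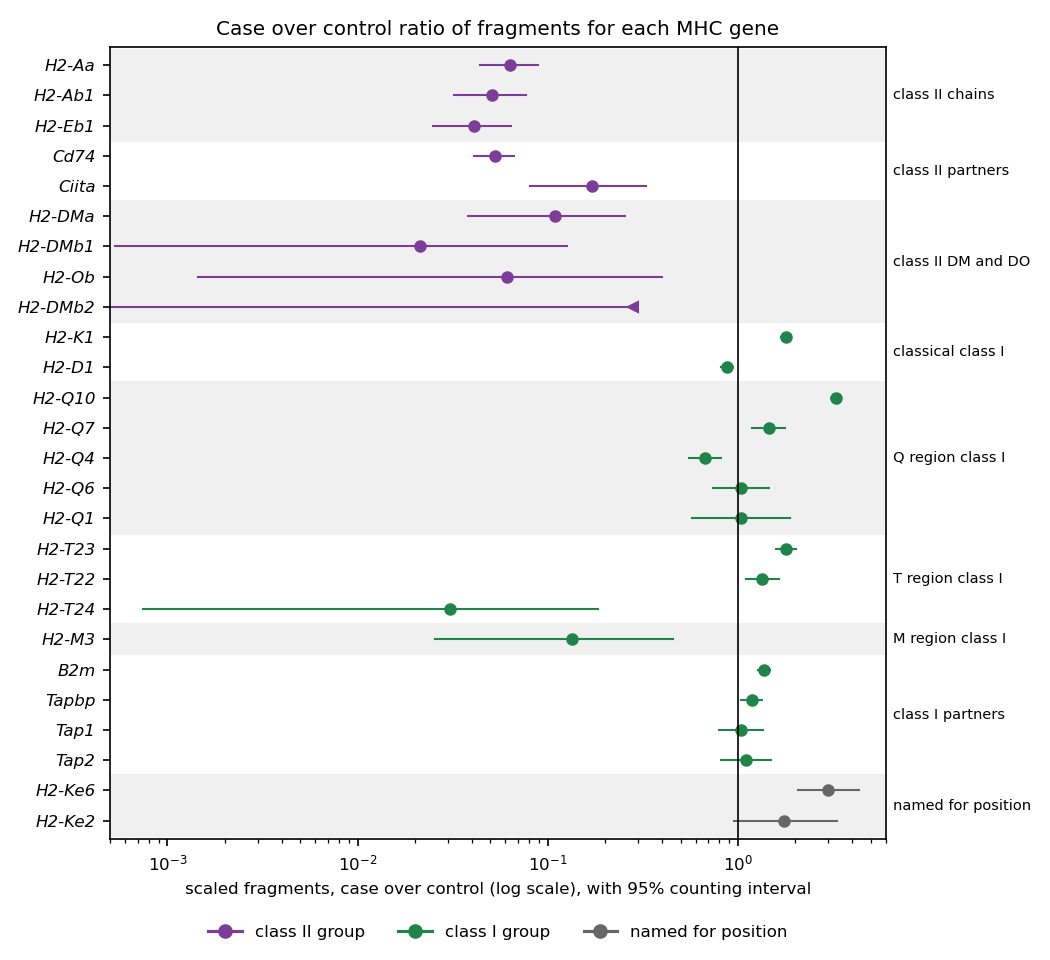
Ratio of scaled fragments, case over control (log axis), for each tested MHC gene, with its 95% counting interval; the arrow marks the upper limit of H2-DMb2, which had no case fragment. Among the class II genes above 1 FPKM in both libraries the upper limits reach 0.0890 (H2-Aa); H2-DMa, H2-DMb1, H2-DMb2, H2-Ob, Ciita, H2-T24 and H2-M3 passed the filter through the control library alone and had to differ. Most class I ratios lie between 0.673 for H2-Q4 and 3.30 for H2-Q10. The line is drawn at 1, which need not stand for an equal level, since the library totals of scaled fragments differ.

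The cells that carry class II have markers of their own, and these were lower in the case input as well. Over all tested genes 13.2% were lower by the same rule. The listed Kupffer cell and macrophage markers, led by C1qc, Csf1r, C1qb and Clec4f, summed to 16.5 FPKM in the case input and 653 FPKM in the control input, and 11 of 11 tested were lower, 5 of which (Csf1r and C1qc among them) passed the filter through the control library alone. Single markers of that list ranged between 0.00123 and 4.21 FPKM in the case input and between 7.68 and 115 FPKM in the control input. Csf1r, at the low end of the case range, had no fragment in the case input. Sinusoidal endothelial markers, led by Stab2, Fcgr2b, Pecam1 and Clec4g, summed to 38.2 FPKM in the case input and 329 FPKM in the control input, and 10 of 10 were lower, 1 of which (Lyve1) passed the filter through the control library alone. So the Kupffer sum was 39.5-fold lower and the endothelial sum 8.62-fold lower in the case input, with the class II sum between them at 17.0-fold. By median log2 difference class II was not between them, at -2.39 beside -4.65 for the Kupffer list and -2.88 for the endothelial list. In bulk RNA, fewer cells of a type and less RNA per cell cannot be told apart.

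Markers of the rarer immune cells were near the limit of detection. For dendritic cells 4 of 5 tested markers were lower (Clec9a, Itgax, Ccr7 and Zbtb46), and the summed level was 2.77 FPKM in the case input and 17.5 FPKM in the control input, with no fragment of Batf3 in either library and none of Cd209a in the case input. Of these 4, Clec9a, Itgax and Ccr7 passed the filter through the control library alone. The lower share of all tested genes was 13.2%. None of 8 B cell markers passed the filter, and they summed to 0.765 FPKM in the case input and 4.85 FPKM in the control input, with Cd22, Cd79b and Pax5 at 0 in the case input. T and NK cell markers summed to 3.08 FPKM in the case input and 12.6 FPKM in the control input; Cd3d, Cd3e and Klrb1c were at 0 in the case input. Nkg7 and Cd2 were lower and passed the filter through the control library alone. Cd4 carried most of the case sum, at 2.26 FPKM on 3 fragments, against 1.66 FPKM on 14 fragments in the control input, so FPKM and fragments gave it opposite directions. Of 12 hepatocyte markers, 8 were higher and 4 within 2-fold in the case input, with Cps1, Tat, Ass1 and Hpd leading, at sums of 29320 FPKM in the case input and 14253 FPKM in the control input. The higher count moved to 6 with equal non-mitochondrial totals and 4 under quantile normalization, and the FPKM of all non-mitochondrial genes summed to 210314 in the case input and 117090 in the control input. Over all genes 23.6% were higher as deposited, 757 of 9775 with equal non-mitochondrial totals and 1351 of 9567 under quantile normalization. Against the Kupffer sum, the class II sum stood at 1.60 in the case input and 0.688 in the control input. Against the endothelial sum it stood at 0.691 in the case input and 1.37 in the control input, and against the dendritic sum at 9.52 in the case input and 25.6 in the control input. The part of these cells in the class II difference was not tested.

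**Figure D3:**
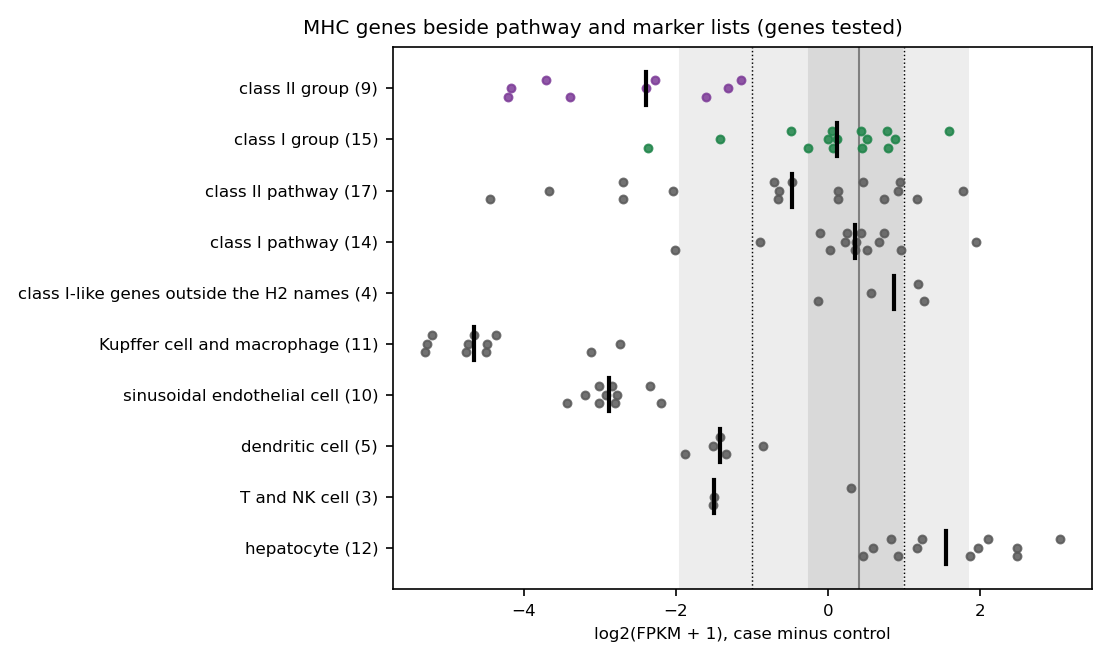
Difference in log2(FPKM + 1), case minus control, of each tested gene of the MHC groups, of the pathway lists and of the cell type marker lists; black bars are medians, dotted lines the 2-fold limits, and grey bands the middle 50% and 90% of all 9584 genes around their median of 0.41. The class II group (median -2.39) lies between the sinusoidal endothelial (-2.88) and the T and NK cell (-1.50) lists, with the Kupffer list at -4.65 and the dendritic list at -1.42. Of the tested genes, 5 of 9 in class II and 4 of 5 in the dendritic list passed the filter through the control library alone. So did 5 of 11 in the Kupffer list, 2 of 3 in the T and NK cell list and 1 of 10 in the endothelial list. In the class I group 2 of 15 did, and in the class II pathway list 2 of 17. The class I group (0.12) lies near all genes. Medians of the class I group and of the class I pathway list turn below 0 under some scalings.

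Of 17 tested genes that work beside class II outside the complex, 5 were lower, 2 higher and 10 within 2-fold in the case input. Over all tested genes 13.2% were lower and 23.6% higher. Of the 5, Cd86 and March1 passed the filter through the control library alone. Ctss, the cathepsin that cuts the invariant chain, had 1.76 FPKM in the case input and 59.4 FPKM in the control input. Ifi30, the lysosomal thiol reductase GILT, had 1.46 FPKM in the case input and 30.1 FPKM in the control input. Lgmn, the asparagine endopeptidase, had 6.69 FPKM in the case input and 48.6 FPKM in the control input. The costimulator Cd86 had 0.302 FPKM in the case input and 7.41 FPKM in the control input, and the fifth lower gene was March1, a ubiquitin ligase that removes class II from the surface. Cathepsins found in many cell types, Ctsb, Ctsd, Ctsh and Ctsl, were within 2-fold as deposited. None of the other class II promoter factors was lower as deposited: Rfx5, Rfxank, Rfxap, Creb1 and Nfya were within 2-fold, and Nfyb and Nfyc were higher, at 7.12 and 9.89 FPKM in the case input and 1.38 and 3.87 FPKM in the control input. These factors and cathepsins were picked out for their roles after their values were seen. The median of the list was -0.47, against 0.41 for all genes. The lower count moved to 8 with equal non-mitochondrial totals and to 10 on the scaled count signal, while the higher count moved to 1 and 0 under the same scalings. Over all genes the lower count moved as well, from 1264 of 9584 to 2168 of 9775 and 2381 of 9584. The higher count of all genes moved from 2260 to 757 and 1034.

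Class I genes, by contrast, were mostly within 2-fold between the libraries. Of the 15 class I members tested, 1 was higher, 2 were lower and 12 were within 2-fold, where 23.6% of all genes were higher and 13.2% lower. Their summed FPKM was 1734 (15506 fragments) in the case input and 1071 (7963 fragments) in the control input, and the sign of that difference depended on the scaling: case over control was 1.62 as deposited, 0.971 with equal non-mitochondrial totals, 0.998 on the scaled count signal and 0.745 after quantile normalization. The median log2 difference was 0.12 as deposited, or -0.29 relative to all genes, and it turned negative under median centring and each of those scalings. Proportions within a library, which no factor common to its genes can move, are therefore given beside the levels.

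Within each library the class II sum was set against the class I sum. It came to 1.52% of class I in the case input and 41.9% in the control input, a 27.6-fold lower proportion in the case library. Cd74 against B2m gave a like picture, at 2.54% in the case input and 68.8% in the control input.

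The classical heavy chains H2-K1 and H2-D1, which present peptides to CD8 T cells, went different ways in FPKM as deposited, though not under quantile normalization. H2-K1 (chr17:33996017-34000333, minus strand) had 484 FPKM (4507 fragments) in the case input and 283 FPKM (2155 fragments) in the control input. H2-D1 had 142 FPKM (1723 fragments) in the case input and 171 FPKM (1678 fragments) in the control input. Neither reached 2-fold as deposited, with log2 differences of 0.77 for H2-K1 and -0.26 for H2-D1. H2-D1 stayed below 0 under all 8 settings and passed 2-fold lower under quantile normalization (-1.45), while H2-K1 was above 0 under 7 settings and at -0.37 under quantile normalization. The settings that change the filter alone leave both values as deposited and had to keep their sign. The proportion of H2-K1 to H2-D1 was 3.40 in the case library and 1.66 in the control library. Counting intervals of the fragment ratio did not meet, at 1.70 to 1.88 for H2-K1 and 0.820 to 0.939 for H2-D1. These intervals do not cover any splitting of reads between similar class I genes.

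H2-Q10 encodes a heavy chain without a membrane anchor that the liver secretes into the blood. It was the 1 class I member called higher, with 481 FPKM (4967 fragments) in the case input and 159.5 FPKM (1286 fragments) in the control input. The ratio of scaled fragments was 3.30 with an interval of 3.10 to 3.51, and the log2 difference was 1.59. The call ended under 3 alternatives, at 0.85 with equal non-mitochondrial totals, 0.39 under quantile normalization and 0.98 on the scaled count signal, though the sign did not turn. Within the case library H2-Q10 stood at 3.38 times H2-D1 and within the control library at 0.935 times. Its share of all class I heavy chain FPKM was 37.5% in the case library and 21.6% in the control library. H2-D1 took 11.1% in the case library and 23.1% in the control library, while H2-K1 took 37.7% in the case library and 38.4% in the control library. The gene lies at chr17:35470089-35474563 on the plus strand.

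The promoters of these 3 heavy chain genes are printed because the proportions of these genes to one another differ between the libraries. Capitals mark GGGGATTCC, the core of the NF-kB site of class I promoters known as enhancer A, and CCAAT or its reverse ATTGG. The runs come from chr17:34000348-34000527 (minus strand) for H2-K1, chr17:35262914-35263093 (plus) for H2-D1 and chr17:35469909-35470088 (plus) for H2-Q10, again from RefSeq on GRCm38.p6.
H2-K1: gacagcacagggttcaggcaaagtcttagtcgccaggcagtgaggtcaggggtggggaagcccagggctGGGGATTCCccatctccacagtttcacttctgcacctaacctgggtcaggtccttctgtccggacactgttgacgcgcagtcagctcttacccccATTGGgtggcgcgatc
H2-D1: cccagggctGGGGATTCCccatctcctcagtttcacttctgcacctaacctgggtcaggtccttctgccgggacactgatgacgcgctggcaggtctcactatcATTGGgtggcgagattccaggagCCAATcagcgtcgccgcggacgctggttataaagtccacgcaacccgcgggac
H2-Q10: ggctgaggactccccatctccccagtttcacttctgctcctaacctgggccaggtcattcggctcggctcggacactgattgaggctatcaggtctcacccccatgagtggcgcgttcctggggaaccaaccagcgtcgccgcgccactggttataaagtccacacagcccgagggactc

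The letters GGGGATTCC (either strand) were found in 4 of 25 class I members with a promoter, H2-K1, H2-D1, H2-Q6 and H2-Q7, in 0 of 8 class II members and in 0.213% of all promoters. In the H2-Q10 window neither these letters nor CCAAT were found. A pattern of interferon regulatory factor sites, GAAANNGAA on either strand, was found in B2m, H2-T22 and H2-T23 and in 7.13% of all promoters. That these letters are missing from a window says nothing on the binding of a factor.

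Among the other Q region genes none reached 2-fold as deposited. H2-Q7, which encodes the Qa-2 antigen, had 25.4 FPKM (277 fragments) in the case input and 14.4 FPKM (163 fragments) in the control input. H2-Q4 had 15.8 FPKM (197 fragments) in the case input and 22.6 FPKM (250 fragments) in the control input, a fragment ratio of 0.673 with an interval of 0.556 to 0.814. H2-Q4 passed 2-fold lower with equal non-mitochondrial totals (-1.19), under quantile normalization (-1.23) and on the scaled count signal (-1.30). H2-Q6 had 6.78 FPKM in the case input and 6.53 FPKM in the control input, and H2-Q1 had 2.19 FPKM in the case input and 1.95 FPKM in the control input. Their intervals span 1, but with unequal library totals 1 need not stand for an equal level. On the scaled count signal the log2 differences were -0.68 for H2-Q6 and -0.66 for H2-Q1. H2-Q2 had 1 fragment in the case input and none in the control input. Many class I heavy chain genes are alike in sequence, and the authors' counting may have split reads between them. Values of single heavy chain genes, H2-K1 and H2-D1 included, are therefore uncertain. H2-D1, H2-Q1, H2-Q2, H2-Q4 and H2-Q6 also share 1 deposited locus, and H2-T22, H2-T23 and H2-T24 share another.

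Of the T and M region genes, those with few fragments were the ones called lower. H2-T23, the Qa-1 heavy chain that NK cells read through CD94/NKG2A, had 98.6 FPKM (856 fragments) in the case input and 53.4 FPKM (406 fragments) in the control input, a log2 difference of 0.87. H2-T22, a ligand of some gamma delta T cells, had 25.0 FPKM (261 fragments) in the case input and 18.2 FPKM (166 fragments) in the control input. H2-T24 had 1 fragment (0.0750 FPKM) in the case input and 28 fragments (4.56 FPKM) in the control input, a ratio of 0.0305 with an interval of 0.000746 to 0.185. H2-M3, which presents peptides that begin with formyl-methionine, had 3 fragments (0.354 FPKM) in the case input and 19 fragments (2.63 FPKM) in the control input, a ratio of 0.135 with an interval of 0.0256 to 0.458. Both genes passed the filter through the control library alone, so these calls are a description, and both dropped out where a mean of 5 FPKM was asked for. The antisense gene A930015D03Rik overlaps H2-T24, and whether the counting used strand is not given in the sources used here. Of the 13 class I members under a mean of 1 FPKM, 10 had no fragment in either library, H2-M2 and H2-M5 had 1 fragment each in the control input, and H2-Q2 had the 1 noted above.

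The partners of class I were all within 2-fold. B2m, the light chain of every class I molecule, had 385 FPKM (1811 fragments) in the case input and 282 FPKM (1129 fragments) in the control input. Tapbp, or tapasin, which holds the empty heavy chain at the transporter, had 54.4 FPKM (563 fragments) in the case input and 37.9 FPKM (407 fragments) in the control input. As deposited, the transporter subunits lay closer together still between the libraries. With equal non-mitochondrial totals they did not. There the log2 differences were -0.59 for Tap1 and -0.63 for Tap2, beside -0.29 for B2m and -0.21 for Tapbp. Tap1 had 7.71 FPKM in the case input and 7.35 FPKM in the control input, and Tap2 had 5.94 FPKM in the case input and 5.93 FPKM in the control input. Their proportion, Tap1 to Tap2, was 1.30 in the case library and 1.24 in the control library. Heavy chain FPKM stood at 3.33 times B2m in the case library and 2.62 times in the control library. Patl2 overlaps the B2m locus, and the B2m fragments did not come out whole.

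The wider class I pathway gave a similar count. Of 14 genes tested, 1 was higher, 1 lower and 12 within 2-fold, where 23.6% of all genes were higher and 13.2% lower. The median log2 difference of the list was 0.36 beside 0.41 for all genes, and that of the list turned to -0.33 with equal non-mitochondrial totals. Psme2, a subunit of the proteasome activator PA28, had 20.2 FPKM (72 fragments) in the case input and 4.54 FPKM (16 fragments) in the control input. Irf1, an interferon-responsive activator of class I genes, had 10.3 FPKM (102 fragments) in the case input and 44.6 FPKM (348 fragments) in the control input. The immunoproteasome subunit Psmb8 had 5.06 FPKM in the case input and 10.3 FPKM in the control input, and the tapasin relative Tapbpl had 4.57 FPKM in the case input and 1.86 FPKM in the control input. Nlrc5, the class I counterpart of Ciita, singled out for that role after its values were seen, had 7.75 FPKM in the case input and 4.49 FPKM in the control input. Of 4 class I-like genes tested outside the H2 names, Azgp1 (306 FPKM in the case input, 128 in the control input) and the lipid presenter Cd1d1 (52.4 FPKM in the case input, 22.7 in the control input) were higher as deposited, while Fcgrt and Hfe were within 2-fold. Both higher calls ended with equal non-mitochondrial totals, under median centring, under quantile normalization and on the scaled count signal.

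The pair of genes named for position has no part in antigen display. H2-Ke6, listed by RefSeq as a synonym of the steroid dehydrogenase gene Hsd17b8, had 26.0 FPKM (139 fragments) in the case input and 10.4 FPKM (40 fragments) in the control input, and its 2-fold call ended under 4 alternatives. H2-Ke2, a synonym of the prefoldin gene Pfdn6, had 9.08 FPKM (35 fragments) in the case input and 7.71 FPKM (17 fragments) in the control input.

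**Figure D4:**
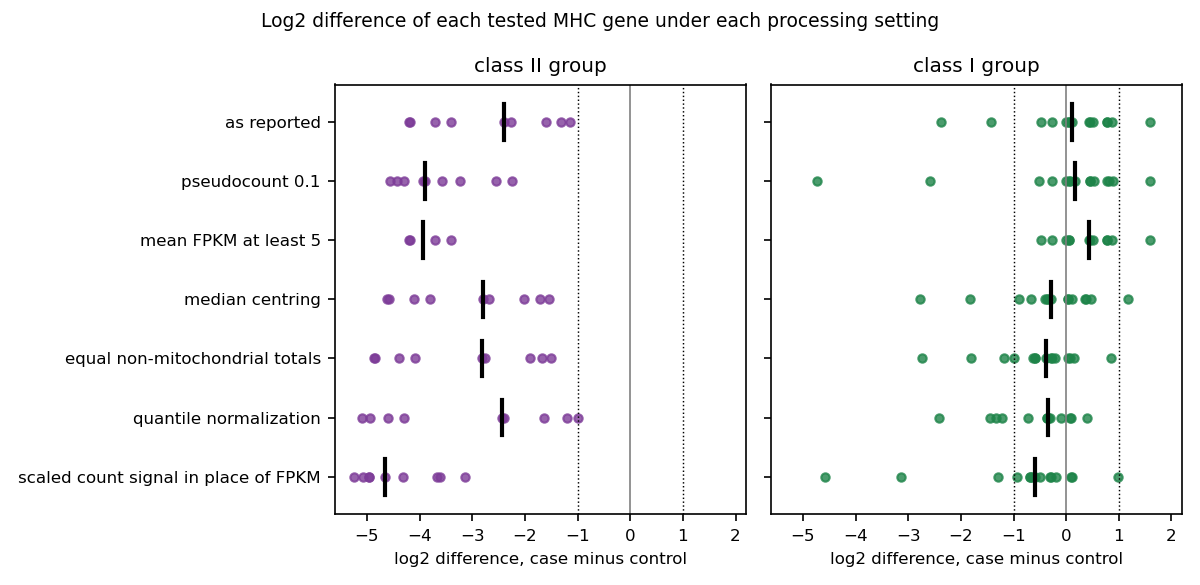
Log2 difference, case minus control, of each tested class II member (left) and class I member (right) under each processing setting; black bars are medians and dotted lines the 2-fold limits. Class II medians lie between -4.67 and -2.39 in every line shown (the setting with no filter, at -2.27 over 11 members, is not drawn), while class I medians lie on both sides of 0, from -0.59 to 0.44.

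The m6A peak lists carried the MHC genes unevenly. The case list held 22 peaks in 12 of these genes among 17277 peaks, and the control list held 12 peaks in 9 of them among 17175. Class II genes had 11 peaks in the case list, in Cd74 (5), Ciita (3), H2-Aa (2) and H2-Ab1 (1), and none in the control list. Class I genes had 11 peaks in 8 genes in the case list and 12 peaks in 9 genes in the control list. Of the 26 members tested in the input, 12 had a case peak and 7 a control peak, beside 65.4% of all tested genes with a case peak and 65.6% with a control peak.

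A peak in the case list alone was found for 4 of the 9 tested class II members, where 16.2% of all tested genes had one. Among all genes that were lower in the case input the share was 44.1%, with 3.72% having a peak in the control list alone. Among genes that were higher in the case input, 6.37% had a case peak alone and 30.3% a control peak alone. The class II count of a case peak alone is thus close to that of lower genes at large. Their other shares differ from class II. Of those lower genes, 72.5% had a case peak of any kind and 32.2% a control peak. Of the 9 tested class II members, 4 had a case peak and 0 a control peak. The 4 genes had between 11 and 75 fragments in the case input. The lists themselves also differ. Their median false discovery rate, as the authors' caller gave it, was 12.3% in the case list and 1.66% in the control list, and 0.0232% of case peaks and 96.9% of control peaks were at 5% or less. What these differences contribute to the class II peaks was not tested, and fold enrichments are read within a list alone.

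**Figure D5:**
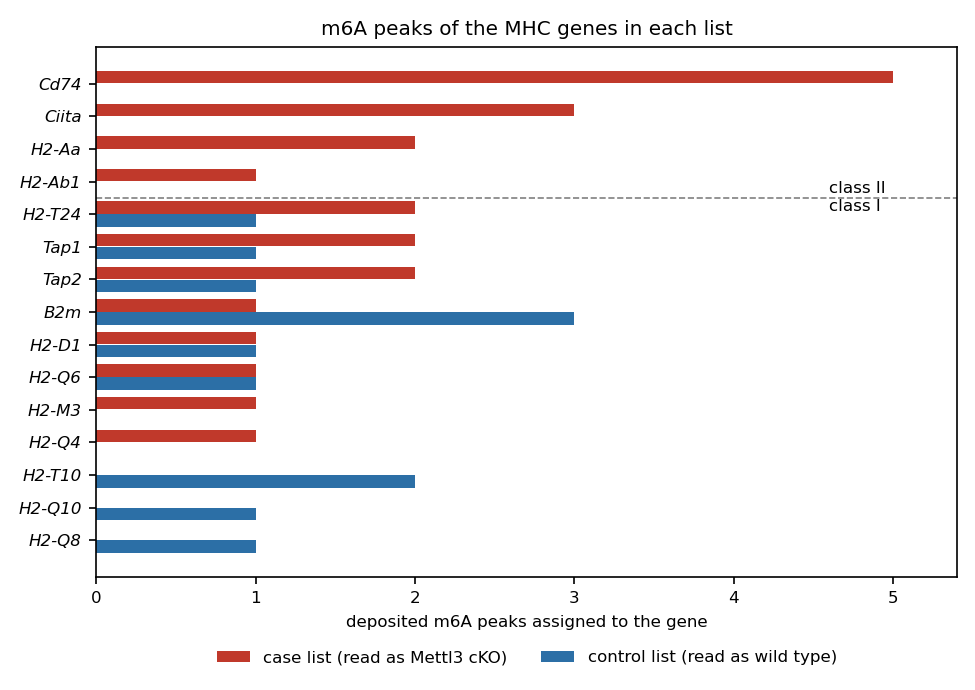
Number of deposited m6A peaks assigned to each MHC gene that has one, in the case list (upper bar of each pair) and the control list (lower bar). The class II genes Cd74, Ciita, H2-Aa and H2-Ab1 have 11 peaks in the case list and none in the control list, and B2m has 1 in the case list and 3 in the control list.

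The 5 case peaks of Cd74 were spread along the gene. The highest was a 93-base peak at chr18:60809982-60810074 with a fold enrichment of 38.9, above 82.1% of its list. The longest, 501 bases at chr18:60812152-60812652, reached the 3′ end of the gene with a fold of 18.95 and a false discovery rate of 15.3%. The others were 110, 26 and 13 bases long. In H2-Aa the higher peak, 280 bases at chr17:34282744-34283023 with a fold of 32.0, also reached the 3′ end. The peak of H2-Ab1, 170 bases at chr17:34269249-34269418 with a fold of 6.60, did so too. The highest of the 3 Ciita peaks was 93 bases long at chr16:10501821-10501913, with a fold of 16.3.

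Peaks in both lists were found for 6 of the 15 tested class I genes, B2m, H2-D1, H2-Q6, H2-T24, Tap1 and Tap2. Over all tested genes the share with a peak in both lists was 49.2%. Of the peaks of these 6 genes, 4 pairs overlapped. B2m (chr2:122150873-122151151, 279 bases) and H2-D1 (chr17:35263839-35264114, 276 bases) had peaks with the same start and end in both lists. That of B2m, where RefSeq also places Patl2, stood low in both, above 14.3% of the case list and 17.2% of the control list. In H2-Q6 a peak of 967 bases at chr17:35429006-35429972 in the case list met one of 841 bases at chr17:35429135-35429975 in the control list. By fold enrichment these stood above 94.6% of the case list and 74.0% of the control list. Their false discovery rates were 17.9% in the case list and 2.02% in the control list. In Tap2 peaks that start at chr17:34205287 ran for 337 bases in the case list and 271 bases in the control list. Of all member peaks, 18.2% in the case list and 33.3% in the control list were overlapped by the other list, beside 35.3% of all case peaks and 35.5% of all control peaks.

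Peaks of one list alone were found in 2 class I genes of the case list and 3 of the control list. Over all tested genes, 16.2% had a peak in the case list alone and 16.4% in the control list alone. Of these class I genes, H2-Q8 and H2-T10 are not in the expression table and so were not tested. The case list had H2-M3 (86 bases, fold 46.1, chr17:37271188-37271273) and H2-Q4 (30 bases, fold 5.91, chr17:35382858-35382887). The control list had H2-Q10 (1078 bases, fold 7.32, chr17:35473486-35474563), whose peak ended at the 3′ end of the gene, H2-T10 (the higher of 2 with 373 bases, fold 44.7, chr17:36116951-36117323) and H2-Q8 (276 bases, fold 7.05, chr17:35425571-35425846). The peak assigned to H2-Q8 lies inside H2-Q6 in RefSeq. The highest member peak of the case list was that of H2-T24, at chr17:36005902-36006789 with 888 bases, a fold of 93.0 and a false discovery rate of 0%, in a gene with 1 fragment in the case input. In the control list H2-T24 had 1 peak of 64 bases at chr17:36014557-36014620 with a fold of 31.6. RefSeq also places A930015D03Rik at every H2-T24 peak and BC023719 at the higher H2-T10 peak. Which gene these peaks belong to was not tested. The transporter genes had higher peaks of 321 bases (Tap1, chr17:34196905-34197225, fold 14.9) and 14 bases (Tap2, chr17:34209282-34209295, fold 23.9) in the case list. In the control list Tap1 had 1 peak of 139 bases (chr17:34196568-34196706, fold 15.7), and the Tap2 peak above had a fold of 51.8. H2-K1 and H2-T23, among the most abundant class I messages, had no peak in either list.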

How the data were processed

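Per the labels' protocols, fragmented liver RNA was precipitated with an antibody against m6A, and IP and input RNA were sequenced as 150 bp paired-end reads. Per the submitters' processing notes, Cufflinks, Cuffdiff, HISAT2 2.0.4 and cutadapt 1.9.3 were named with the build mm10 but no roles. The authors deposited FPKM and, per the file headers, a second signal headed as counts. Among low values it moves in equal steps, and dividing by the step gave fragments that were whole within 0.02 for 91.6% of case values and 92.6% of control values above 0. The peak lists, per the file headers, give each peak's fold enrichment (a ratio), score and false discovery rate in percent. Their peak names begin with MACS, whose version is not given in the sources used here. The 8 value columns and 4 peak lists named by numbers match no label and were not used, so 1 library per genotype was compared without a test.

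The 13 mitochondrial genes were set aside, a mean FPKM of at least 1 was required, and the pseudocount was 1. Intervals of fragment counts are exact Poisson and those of ratios Clopper-Pearson (scipy 1.17.1); PCR copies are not independent molecules. Peaks overlapped by at least 1 base, and coordinates (mm10) count from 1. All tested members were named, with 4 genes of each list by absolute log2 difference and the highest peak of each member. Members, lists and tests were chosen with earlier results of these data known. Alternatives changed the pseudocount, filter, scaling, measure, peak threshold and overlap. The scripts were tested on simulated data.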

Additional observations from a re-analysis of the deposited data

How the results depend on the processing

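No paired analysis was possible because 1 library per genotype could be matched, and for the same reason no replicate could be left out. The count of 9 lower class II members became 4 of the 4 that a mean of 5 FPKM kept. Their median of -2.39 moved to -3.89 with a pseudocount of 0.1, -3.94 with that filter, -2.80 under median centring, -2.82 with equal non-mitochondrial totals and -4.67 on the scaled count signal. The 2 lower class I members became 0 with a mean of at least 5 FPKM, where 12 were tested, and 4 under quantile normalization. The class I median of 0.12 moved to 0.16 with a pseudocount of 0.1, 0.44 with a mean of at least 5 FPKM, 0.00 with no filter, -0.29 under median centring, -0.39 with equal non-mitochondrial totals, -0.34 under quantile normalization and -0.59 on the scaled count signal. The moves under quantile normalization and on the scaled count signal have a cause that was not tested; the others follow from genes left out or added, the pseudocount or a common factor. Genes 2-fold higher or lower numbered 1911 with a mean of at least 5 FPKM, against 3524. Among the 5000 peaks of highest fold, 5 members in the case list and 1 in the control list had a peak, with 1 peak of each list overlapped. Over the 26 tested members, 162 of 174 recomputed values kept their side of the 2-fold limit, 8 lost the call and 4 gained one, and of the called values 0 changed sign. Settings that change the filter alone leave the value of a gene as it was, so their part of the 162 was fixed in advance. Depth limits H2-DMb1, H2-DMb2, H2-Ob, H2-T24 and H2-M3, which had 0 to 3 case fragments.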
